A study of Mus musculus with 6 samples.

Results

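The genes described here are 10 members of fibroblast growth factor (FGF) signalling in the newborn mouse molar: the ligands Fgf3, Fgf9 and Fgf10, the receptors Fgfr1, Fgfr2 and Fgfr3, and the feedback inhibitors Spry1, Spry2, Spry4 and Dusp6. They were found on the arrays by the RefSeq accession of each probe, which gave 18 probes for the 10 genes, among 17178 named genes and 41174 gene probes in all. Expression was measured on 6 one-colour arrays in lower first molar tooth germs at postnatal day 0, from 129/Sv mice that the labels call male. The labels give 3 wild-type samples (WT1, WT2 and WT3) and 3 Perp-null samples (PN1, PN2 and PN3), each a biological replicate. They name no Perp allele and no number of animals per sample, and mutant and control share the strain, the tissue and the age. Since the source of each sample is not described further, a p-value here reflects only how far these samples scatter, which may be technical.

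FGF ligands carry signals between the epithelium and the mesenchyme of a tooth germ. They bind receptor tyrosine kinases together with heparan sulphate, and the receptors act through Ras and the ERK kinases. In the mouse tooth Fgf9 is an epithelial ligand, while Fgf3 and Fgf10 are made in the dental mesenchyme and act on the epithelium. ERK activity induces its own inhibitors: the Sprouty proteins (Spry1, Spry2 and Spry4), which dampen receptor signalling, and Dusp6, a phosphatase that inactivates ERK. Mice that lack Spry2 or Spry4 form extra teeth in front of the molars. Perp sits in the membrane at desmosomes, which fasten epithelial cells to each other.

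The samples were deposited in 2 forms, and these did not hold the same array under the same sample. The first form is a scanner file for each sample, and the second is a table of log2 values with a column for each sample. In 5 of the 6 table columns the 41174 gene probes had the same rank order as the median spot signal of 1 scanner file (rank correlation 1.000, the table being rounded). Only for WT1 was that file the one attached to the same sample. The column WT2 matched the file attached to WT3, WT3 matched the file of PN1, PN1 matched the file of WT2, and PN3 matched the file of PN2. The column PN2 matched no file (highest rank correlation 0.980), and the file attached to PN3 matched no column (highest 0.985). Perp followed the genotype labels in the table, at 17.01, 16.95 and 16.98 in WT1, WT2 and WT3 against 7.51, 8.24 and 7.26 in PN1, PN2 and PN3. In the scanner files the Perp signal was low in those attached to WT2 and PN2 and high in the other 4. Xist, the RNA that silences an X chromosome in females, was at 8.16 in WT3, 9.27 in PN1 and 10.14 in PN3 of the table. It was at 5.63, 5.68 and 6.25 in WT1, WT2 and PN2. The Y-linked gene Ddx3y was the reverse, at 6.03, 5.94 and 6.67 in WT3, PN1 and PN3 against 11.72, 11.57 and 11.64. So 3 columns, WT3, PN1 and PN3, went against the male label, and sex was not balanced between the groups. The part of sex in the results was not tested. Results are given from the table, whose columns follow the Perp labels, and from the scanner files as attached, the source first planned. The labels of those files do not separate them by Perp, which itself differed by −0.59 (SE 4.32) between the labels. A contrast by those labels mixes high-Perp and low-Perp files on both sides, so it cannot test a difference by Perp genotype.

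**Figure D1:**
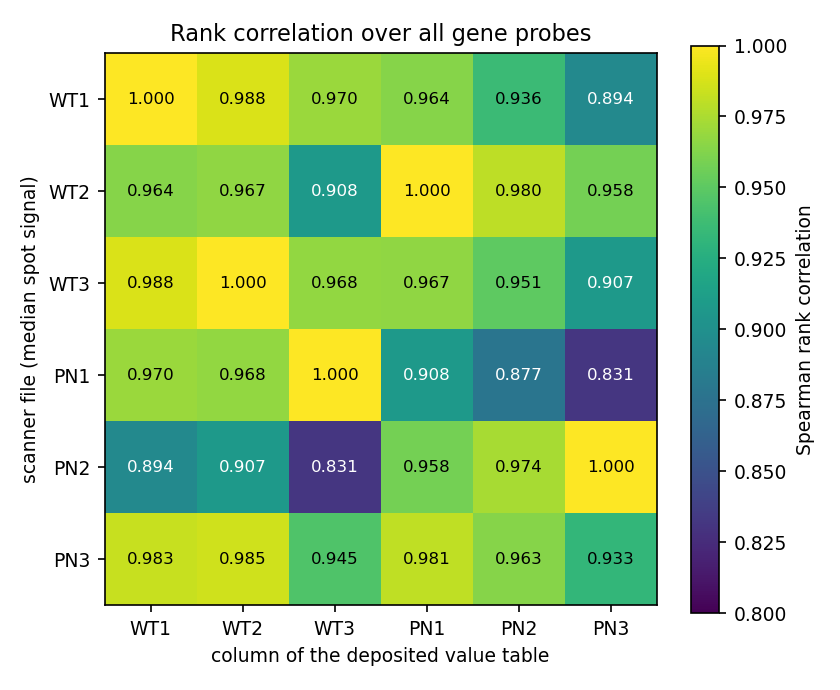
Spearman rank correlation between the median spot signal of each scanner file (rows) and each column of the deposited value table (columns), over 41174 gene probes. A value of 1.000 marks the same rank order: only WT1 lies on the diagonal, and the column PN2 and the file PN3 have no such partner.

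Promoter sequence is shown for 2 feedback inhibitors. They are Spry2, the 1 gene of the 10 that passed the test in the table, and Dusp6, the ERK phosphatase, whose signal was higher on average but did not pass. Each window runs from 250 bases before to 50 bases after the annotated start, 5′ to 3′ on the gene's strand, from RefSeq (GRCm38.p6), which gave 9 windows for 8 of the 10 genes. Capitals mark GGAAG or its reverse complement CTTCC, the core letters read by ETS transcription factors, which ERK activates.
Spry2, chr14:105896770-105897069, minus strand: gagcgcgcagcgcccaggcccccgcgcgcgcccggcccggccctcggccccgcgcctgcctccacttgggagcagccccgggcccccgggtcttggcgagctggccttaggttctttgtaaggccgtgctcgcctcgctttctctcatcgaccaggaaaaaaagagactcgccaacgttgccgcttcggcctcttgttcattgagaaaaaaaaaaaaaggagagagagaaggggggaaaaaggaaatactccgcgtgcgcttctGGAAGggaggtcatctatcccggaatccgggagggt
Dusp6, chr10:99262981-99263280, plus strand: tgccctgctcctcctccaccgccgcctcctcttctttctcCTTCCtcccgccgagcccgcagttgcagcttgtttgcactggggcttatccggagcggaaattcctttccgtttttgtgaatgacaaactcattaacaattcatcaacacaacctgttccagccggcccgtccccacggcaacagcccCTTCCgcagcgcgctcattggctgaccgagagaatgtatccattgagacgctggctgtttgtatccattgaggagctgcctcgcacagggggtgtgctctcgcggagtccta
The Spry2 window holds 1 match and the Dusp6 window holds 2. GGAAG or CTTCC occurs in 7 of the 9 windows and in 71.4% of the 32851 promoter windows of the same length, so a match is common. A link between these matches and the signal was not tested. The longer CCGGAAG, searched on both strands and containing GGAAG, was in 0 of the 9 windows, against 8.86% of all windows.

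Among the feedback inhibitors, Spry2 was higher in the Perp-null columns of the table. Its brighter probe had log2 values of 11.71, 12.05 and 11.62 in WT1, WT2 and WT3 and of 12.21, 12.68 and 12.48 in PN1, PN2 and PN3. All 3 Perp-null values lay above all 3 wild-type values, with means of 12.46 ± 0.24 (SD, n = 3) against 11.79 ± 0.23 (SD, n = 3). The log2 difference, Perp-null minus wild type, was 0.66 (SE 0.19, 95% interval 0.23 to 1.09), a 1.58-fold rise (limma, Benjamini-Hochberg adjusted p = 0.0372). The dimmer probe of Spry2 gave 8.33, 8.52 and 7.86 in the wild-type columns and 8.89, 9.25 and 9.03 in the Perp-null columns, again without overlap. Its log2 difference was 0.82 (SE 0.26), and it did not pass when every probe was tested by itself (limma, adjusted p = 0.0573).

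The Spry2 call did not hold under several other settings. Its log2 difference stayed between 0.55 and 0.79 when each column was left out in turn. The adjusted p was 0.0934 without WT1, 0.112 without WT3, 0.125 without PN2 and 0.106 without PN3 (limma), so the call was lost in those settings, and it was 0.0385 without WT2 and 0.0273 without PN1. It was also lost with only probes above background on all arrays (limma, adjusted p = 0.0686) and with eBayes without trend (limma, adjusted p = 0.0507). By the slide of the matching scan, Spry2 was higher by 0.33 in PN1 than in the mean of WT1 and WT2 on the first slide, and by 0.86 in PN3 than in WT3 on the second. These within-slide differences were not tested. With the slide as a covariate, over the 5 columns with a matching scan, the difference was 0.56 (limma, adjusted p = 0.123). A block for the replicate numbers left it at 0.66 and ended the call (limma, adjusted p = 0.0540).

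In the scanner files as attached, whose labels do not follow Perp, Spry2 did not pass. The scaled log2 signal of its brighter probe, taken against its own array's 75th percentile, was 0.73, 1.18 and 1.09 in the files of WT1, WT2 and WT3 and 0.47, 1.34 and 0.59 in those of PN1, PN2 and PN3. The groups overlapped, and the log2 difference was −0.20 (SE 0.26; limma, adjusted p = 1.00). The same scans can be read under the table columns they matched, with the processed signal, which is background-subtracted and scaled differently, and without PN2, which has no scan. These values were not tested, and they come from the same arrays as the table by rank order, so they are no second measurement. Spry2 then stood at 0.73, 1.09 and 0.47 for the columns WT1, WT2 and WT3 and at 1.18 and 1.34 for PN1 and PN3, without overlap. The dimmer probe ran the other way in those scans, at −2.23, −2.41 and −1.87 against −2.65 and −2.51, so the 2 probes of Spry2 ran the same way in the table and opposite ways in those scans.

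Spry1, Dusp6 and Spry4 did not pass. Spry1 had table values of 12.52, 13.81 and 13.19 in WT1, WT2 and WT3 and of 13.01, 14.33 and 13.84 in PN1, PN2 and PN3. The groups overlapped, and the log2 difference was 0.55 (SE 0.39; limma, adjusted p = 0.378). Dusp6 had values of 13.36, 14.20 and 14.06 in the wild-type columns and of 13.63, 14.63 and 14.34 in the Perp-null columns. Its log2 difference was 0.33 (SE 0.30; limma, adjusted p = 0.504). Within both genes WT1 and PN1 were the lowest 2 of the 6 samples, and PN2 was the highest. In the scanner files as attached the differences were 0.24 (SE 0.44) for Spry1 and 0.01 (SE 0.33) for Dusp6, with an adjusted p of 1.00 for each (limma).

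The ameloblast markers, genes of the cells that lay down enamel, moved across the samples as well. The mean log2 value of the 6 tested markers was 14.98 in WT1 and 14.90 in PN1, and lay between 12.63 and 14.21 in the other 4 columns. The columns with the highest mean of this list were thus those with the lowest Spry1 and Dusp6. Odam, 1 of the 6 markers, went another way, lowest in WT1 at 14.56 and highest in PN3 at 15.13. The mean of the odontoblast markers (5 of 5 tested) was also highest in WT1 and PN1, at 14.68 and 14.65 against 13.16 to 14.36. The part of either cell type in the Spry1 and Dusp6 values was not tested. In whole tooth germs fewer cells of a type and less RNA per cell cannot be told apart.

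Spry4 was at the limit of detection. Its probe used in the fit was well above background in 3 of the 6 scanner files and had table values of 6.66, 6.79 and 6.89 in the wild-type columns and 6.33, 7.09 and 6.58 in the Perp-null columns. The log2 difference was −0.11 (SE 0.20; limma, adjusted p = 0.751). The second Spry4 probe was well above background in only 2 of the 6 scanner files and was left out by the filter. The values of that probe in the table were 6.33, 6.69 and 6.27 in WT1, WT2 and WT3 and of 7.11, 7.68 and 7.45 in PN1, PN2 and PN3, without overlap. The 2 files in which it was well above background were those matching PN1 and PN3, while the first probe was well above background in 2 of the 3 scans matching wild-type columns and in 0 of the 2 matching Perp-null columns. Without a filter the second probe stood for Spry4, with a log2 difference of 0.98 (limma, adjusted p = 0.0239), so the 2 probes gave opposite directions. In the matching scans the processed signal of the second probe was lower in the Perp-null columns, at −5.70, −5.03 and −4.59 for WT1, WT2 and WT3 against −5.90 and −5.90 for PN1 and PN3, the reverse of its table direction.

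**Figure D2:**
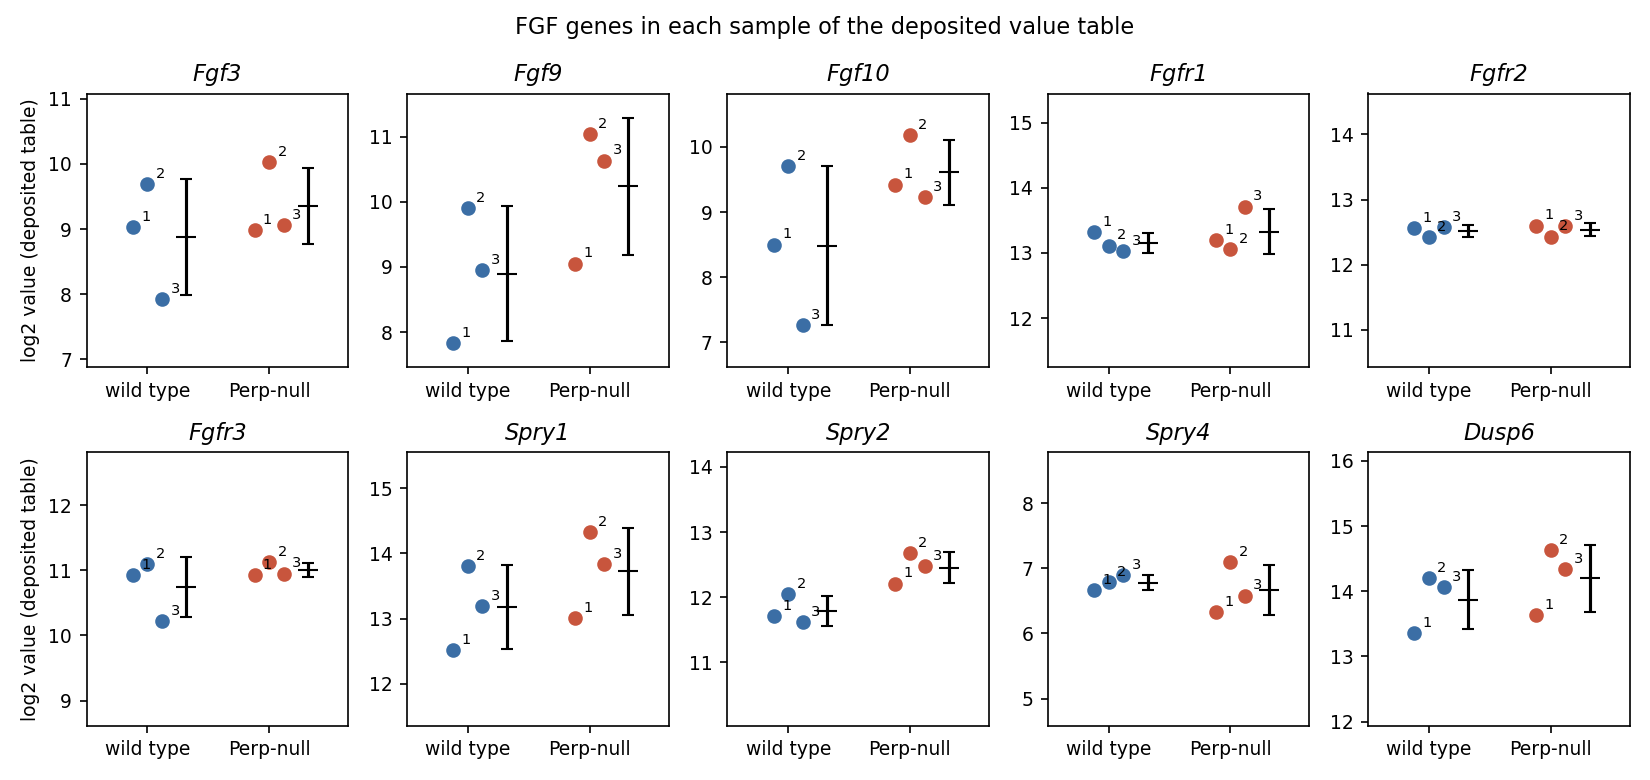
Log2 value of each FGF gene in the 6 columns of the deposited value table, with the replicate number beside each point and the mean ± SD of each group (n = 3) to its right. All panels span the same number of log2 units. The groups are apart for Spry2, where the Perp-null points lie between 12.21 and 12.68 and the wild-type points between 11.62 and 12.05, and overlap for the other 9 genes.

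The 3 ligands had higher means in the Perp-null columns, but none passed. Fgf9 had table values of 7.83, 9.90 and 8.95 in WT1, WT2 and WT3 and of 9.05, 11.04 and 10.63 in PN1, PN2 and PN3. PN1 lay within the wild-type range and the other 2 above it. The log2 difference was 1.35 (SE 0.64, 95% interval −0.13 to 2.82; limma, adjusted p = 0.175). Without PN1 it was 1.94 and passed (limma, adjusted p = 0.0430), and without any other single column it did not.

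Fgf10 had values of 8.50, 9.70 and 7.26 in the wild-type columns and of 9.42, 10.18 and 9.23 in the Perp-null columns. WT2 lay within the Perp-null range, and WT3 was the lowest sample. The log2 difference was 1.12 (SE 0.58; limma, adjusted p = 0.216). Without WT2 it was 1.73 and passed (limma, adjusted p = 0.0428), and without WT3 it fell to 0.51 (limma, adjusted p = 0.533). Fgf3 had values of 9.03, 9.69 and 7.93 in WT1, WT2 and WT3 and of 8.98, 10.03 and 9.06 in PN1, PN2 and PN3. Its log2 difference of 0.47 (SE 0.49; limma, adjusted p = 0.567) was −0.0033 without WT3.

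Both mesenchymal ligands were thus lowest in WT3, and so was the mean of the dental mesenchyme markers. The mean log2 value of the 10 mesenchyme markers, all of them tested, was 11.48 in WT3 and lay between 12.20 and 12.72 in the other 5 columns. Of those markers 8 were lowest in WT3, while Prrx1 was highest there and Col1a2 was lowest in PN3. The mean of the endothelial markers (7 of 7 tested) was also lowest in WT3, at 9.88 against 11.12 to 11.74, with 6 of the 7 lowest there and Pecam1 highest there. The mean of the macrophage markers (5 of 6 tested) was 10.18 against 10.98 to 11.80, with 4 of the 5 lowest in WT3 and Tyrobp lowest in PN3. The mesenchyme list ran from 11.48 to 12.64 in the wild-type columns and from 12.20 to 12.72 in the Perp-null columns. The part of these cells in the Fgf3 and Fgf10 values was not tested.

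By the labels of the attached scanner files, Fgf10 and Fgf3 ran against the table. Fgf9 differed by 0.78 (SE 0.61), Fgf10 by −0.77 (SE 0.56) and Fgf3 by −0.64 (SE 0.51), with overlapping groups and an adjusted p of 1.00 for each (limma). In the scans matching the table columns, not tested, Fgf10 differed by 0.63, with the sign of the table, and Fgf9 by 0.12. The groups overlapped for both, and PN1 and PN3 lay within the wild-type range for Fgf10. Fgf3 ran against the table there, at −1.84, −1.34 and −1.96 for WT1, WT2 and WT3 and −2.72 and −2.68 for PN1 and PN3, without overlap.

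None of the 3 receptors passed. Fgfr2, the receptor of the dental epithelium for Fgf3 and Fgf10, had values of 12.56, 12.42 and 12.58 in the wild-type columns and of 12.60, 12.43 and 12.59 in the Perp-null columns on its brightest probe. The 6 samples spanned 0.18 log2 units, and the difference was 0.02 (95% interval −0.28 to 0.32; limma, adjusted p = 0.940). A second Fgfr2 probe was higher without overlap, at 10.42, 10.45 and 10.48 against 10.67, 10.65 and 10.82, with a difference of 0.26 that did not pass when every probe was tested by itself (limma, adjusted p = 0.323). The third, dimmest probe differed by −0.05. The arrays' annotation gives all 3 the same transcript accession, so what sets the probes apart cannot be read from it.

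Fgfr1, a receptor with wide expression, ran from 13.03 to 13.32 in the wild-type columns and from 13.06 to 13.71 in the Perp-null columns, with a difference of 0.17 (SE 0.19; limma, adjusted p = 0.596). Its other 2 probes differed by 0.12 and by −0.0033. Fgfr3 had values of 10.93, 11.09 and 10.22 in WT1, WT2 and WT3 and of 10.93, 11.13 and 10.95 in PN1, PN2 and PN3. WT3 was again the lowest, and the difference of 0.26 (SE 0.25; limma, adjusted p = 0.549) was −0.0067 without it. The dimmest Fgfr3 probe ran the other way without overlap, at 8.44, 8.63 and 8.55 against 8.21, 8.34 and 7.99. In the scanner files as attached the receptors differed by 0.10 (Fgfr1), −0.07 (Fgfr2) and −0.33 (Fgfr3), and none passed (limma, adjusted p = 1.00 for each). Fgfr3 was the 1 member whose groups did not overlap there, as lower, against 3.49% of all features.

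**Figure D3:**
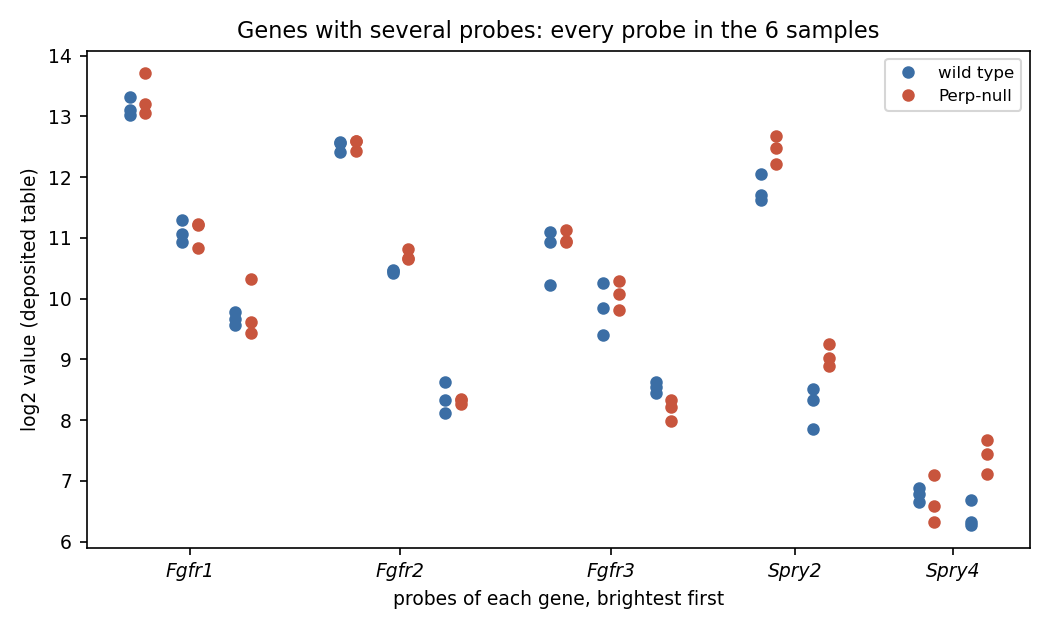
Log2 value in the deposited table of every probe of the 5 FGF genes that have several probes, for the 3 wild-type and the 3 Perp-null samples. Both probes of Spry2 are higher in the Perp-null samples, the 2 probes of Spry4 run in opposite directions, and the receptor probes mostly overlap.

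Taken as a list, 1 of the 10 genes passed in the table, against 23.6% of the 26677 features tested in either direction, with 8.64% as higher and 14.9% as lower. A share of 1 in 10 is near that background. The groups of 1 of the 10 did not overlap, against 18.7% of features as higher. The number of calls depended on single columns: 6289 features passed with all 6, 786 without PN3 and 1 without PN2, and 1 with the replicate block. An unadjusted p under 0.05 (limma) was still met by 7974 features without PN2, against 9569 with all 6. The Perp-null mean was the higher for 9 of the 10 genes, where it was so for 51.2% of all features. By slide of the matching scan it was the higher for 4 of 10 on the first slide and for 9 of 10 on the second, with Fgf3 at −0.38, Spry1 at −0.155, Dusp6 at −0.15, Fgfr3 at −0.08, Fgfr1 at −0.015 and Spry4 at −0.395 on the first. In the matching scans' processed signal 7 of the 10 were higher. For the slides and the matching scans, here and in the lists below, no share over all features was computed. The second slide holds only 1 column of each group, WT3 and PN3. Over the 6 table columns the median log2 difference was 0.40 against 0.01 over all features. On the scanner files as attached 0 of the 10 passed, as did 0% of the features (limma, adjusted p under 0.05), and 2.36% of the features had an unadjusted p under 0.05, none of them among the 10 genes. There 5 genes had the higher mean in the files labelled Perp-null and 5 the lower, where 39% of all features had the higher mean, and the median was −0.03 against −0.08 over all features.

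**Figure D4:**
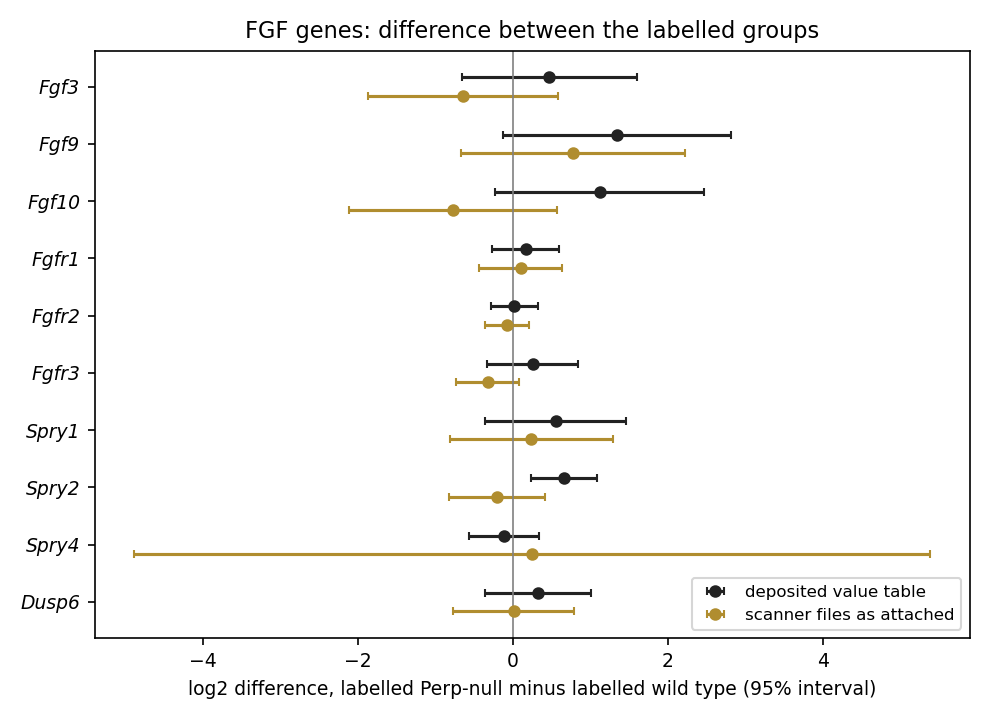
Log2 difference of each FGF gene, Perp-null minus wild type by label, with its 95% interval from limma, in the deposited value table (black) and in the scanner files as attached (ochre). In the table the interval of Spry2, 0.23 to 1.09, leaves out 0, and in the scanner files every interval includes it.

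Calls in the table were concentrated in dim features, which bears on how the pathway lists read. Features were divided by mean level into 4 classes of equal size. In the dimmest class 17.4% passed as higher and 26.4% as lower, and in the brightest class, above a mean of 11.77, only 4 features (0.06%) passed as higher and 21 (0.315%) as lower. Spry2, with a mean of 12.13, was 1 of those 4. The classes were drawn after the data were seen. The scans matching wild-type columns had negative control spots with median signals of 90, 80 and 127, and those matching PN1 and PN3 had 37.5 and 32. The table's values keep the order of the signal before background subtraction. Over these scans the control signal was higher for the wild-type columns, and PN2 has no scan. The part of background in the calls of dim features was not tested. Every call in the pathway lists described next was lost without PN2 and also without PN3.

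**Figure D5:**
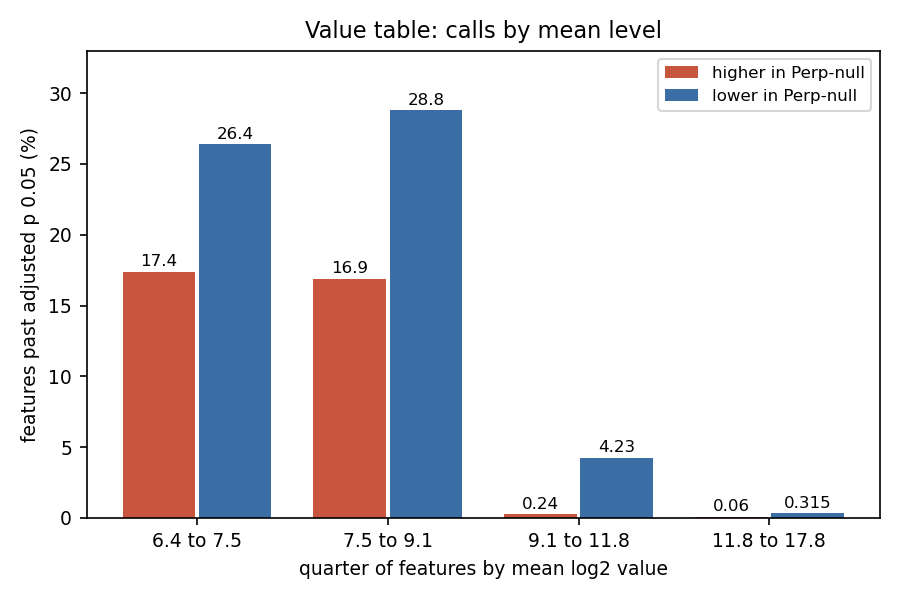
Share of features past an adjusted p of 0.05 in the deposited value table, in 4 classes of mean log2 value. The dimmest class has 17.4% higher and 26.4% lower, the next has 16.9% and 28.8%, and the brightest has 0.06% and 0.315%.

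The other FGF ligands, most of them dim, included 9 of 18 tested genes that passed as lower in the table and 0 that passed as higher, against 14.9% and 8.64% of all features. In the second level class, with means from 7.54 to 9.06, 28.8% of features passed as lower. All 9 had a mean between 7.22 and 9.12, under the table's 75th percentile of 10.98. Fgf20, a ligand of early tooth epithelium, ran from 9.23 to 10.82 in the wild-type columns and from 6.91 to 8.16 in the Perp-null columns, with a log2 difference of −2.46 (SE 0.48). Fgf22 differed by −1.55 (SE 0.29), Fgf14 by −2.54 (SE 0.49) and Fgf11 by −2.07 (SE 0.41), the last 2 from the intracellular FGF family (limma, adjusted p = 0.0216 for each of the 4). Between 7 and 9 of the 18 passed without WT1, WT2, WT3 or PN1, and 0 without PN2 or PN3. The difference of Fgf20 was still −2.40 without PN2 and −2.17 without PN3. The list's median was −0.93. In the scans matching the table columns, not tested, 17 of the 18 were lower, with Fgf20 at −3.98, and 1 was higher. Fgf15, which differed by only −0.07 in the table, was among the lower ones there, at −4.00. The share of all features that were lower in those scans was not computed. On the scanner files as attached 0 of the 18 passed and the median was −0.53.

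Other feedback inhibitors had higher means in the table, but 0 of the 9 tested passed, against 23.6% of all features. The mean was higher for 9 of 9, against 51.2% of all features, with a median difference of 0.25. When WT1 was left out, 1 passed as higher, and 0 passed when any other column was left out. Over all features, 1 to 5919 passed with each column left out. The groups of 4 did not overlap, where 18.7% of all features were apart in that direction. Il17rd, a membrane inhibitor of FGF receptors also called Sef, had values of 12.42, 12.15 and 11.97 in the wild-type columns and of 12.68, 12.84 and 12.51 in the Perp-null columns. Its difference was 0.50 (SE 0.17; limma, adjusted p = 0.0669). Spred2, a relative of the Sproutys, differed by 0.78 (SE 0.28; limma, adjusted p = 0.0814), Cbl, a ubiquitin ligase for receptors, by 1.03 (SE 0.38; limma, adjusted p = 0.0892), and Dusp4, another ERK phosphatase, by 0.50 (SE 0.27; limma, adjusted p = 0.228). In the attached scanner files 0 of 9 passed, and 7 had the higher mean. In the scans matching the table columns, not tested, 5 of the 9 were higher. Il17rd at 0.45 and Cbl at 0.02 ran with the table there, and Spred2 at −0.45 and Dusp4 at −1.35 ran against it.

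Of the 11 tested transcription factors downstream of ERK, 0 passed as higher in the table and 1 as lower, against 8.64% and 14.9% of all features. That gene was Etv2, an ETS factor of blood vessel precursors, at −2.79 (SE 0.51; limma, adjusted p = 0.0216) with a mean of 9.06. Without PN2 its adjusted p was 0.0691 and without PN3 0.0612 (limma). In the matching scans, the same arrays by rank order, Etv2 was lower by −4.40, which was not tested. Etv5, an ETS factor induced by FGF in many tissues, had values of 8.02, 8.54 and 7.39 in the wild-type columns and of 8.66, 9.24 and 9.06 in the Perp-null columns. Its difference was 1.003 (SE 0.35) and did not pass (limma, adjusted p = 0.0706), and in the matching scans, not tested, it was −0.41. Myc differed by 0.47 (SE 0.26; limma, adjusted p = 0.246) and Fos by 0.72 (SE 0.40; limma, adjusted p = 0.248). Table means were higher for 10 of the 11, against 51.2% of all features, with a median of 0.42. In the matching scans 7 of the 11 were higher. By the scanner files none passed (0 of 11), 5 had the higher mean, and the median was −0.0032.

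None of the 19 tested genes of the Ras to ERK cascade itself passed in the table, against 23.6% of all features. Most of them lay in the brightest class, where 0.06% of features passed as higher and 0.315% as lower. The median difference was 0.04. Of the 19, 1 had an unadjusted p under 0.05 (limma), as had 9569 of all 26677 features. Frs3, an adaptor that docks to FGF receptors, differed by −0.92 (SE 0.29; limma, adjusted p = 0.0537), the adaptor Shc1 by 0.30 (SE 0.35; limma, adjusted p = 0.616) and the ribosomal S6 kinase Rps6ka1 by −0.15 (SE 0.19; limma, adjusted p = 0.649). Read from the scanner files, 0 of 19 passed and the median was −0.12.

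Among 16 tested receptors, co-receptors and binding proteins, 1 passed as higher and 1 as lower in the table, against 8.64% and 14.9% of all features. Fgfbp3, a carrier that releases FGFs from the matrix, had values of 7.31, 7.63 and 6.91 in the wild-type columns and of 7.88, 8.67 and 8.21 in the Perp-null columns, a difference of 0.97 (SE 0.29; limma, adjusted p = 0.0441). That call was lost without WT1 (limma, adjusted p = 0.103), WT3 (0.113), PN2 (0.139) or PN3 (0.0968). In the scans matching the table columns Fgfbp3 ran the other way, by −0.48, which was not tested. Its relative Fgfbp1 ran from 9.57 to 10.72 and from 7.63 to 8.30, a difference of −1.95 (SE 0.37; limma, adjusted p = 0.0216). The adjusted p of Fgfbp1 was 0.0691 without PN2 and 0.0630 without PN3 (limma). In the matching scans, the same arrays by rank order, Fgfbp1 was lower by −2.99, which was not tested. Flrt1 differed by −0.75 (SE 0.29; limma, adjusted p = 0.0963) and the heparan sulphate proteoglycan Sdc3 by −0.51 (SE 0.20; limma, adjusted p = 0.108). The scanner files gave 0 of 16.

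Of 12 genes that make or edit heparan sulphate, 1 passed as higher and 0 as lower in the table, against 8.64% and 14.9% of all features. Hs3st1, which adds the 3-O-sulphate group, had values of 7.65, 7.27 and 6.47 in the wild-type columns and of 8.87, 8.74 and 8.59 in the Perp-null columns, without overlap. Its difference was 1.60 (SE 0.32), a 3.04-fold rise (limma, adjusted p = 0.0216), at a mean of 7.93. Without PN2 it was 1.60 (limma, adjusted p = 0.0691) and without PN3 1.675 (limma, adjusted p = 0.0587). In the matching scans, the same arrays by rank order, Hs3st1 was higher by 1.19, which was not tested. Hs6st1 differed by 0.24 (SE 0.16; limma, adjusted p = 0.340), Extl3 by 0.07 (SE 0.11; limma, adjusted p = 0.726) and Sulf1 by 0.08 (SE 0.16; limma, adjusted p = 0.775). On the scanner files as attached 0 of 12 passed, and 11 of the 12 had the lower mean.

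The genes whose pattern over the 6 samples lay closest to a member's were taken for the 4 members with the widest range in the table, by the root mean square difference of log2 values centred per gene. For Fgf9 they were Tafa1, Ltb and Synpr, at 0.244, 0.319 and 0.333 log2 units. For Fgf10 they were Ube2l6, Ptprc and Aspn, at 0.113, 0.169 and 0.201. For Fgf3 they were Lyplal1, Zcchc12 and Rac2, at 0.148, 0.164 and 0.167, and for Spry1 they were Smc2, Cip2a and Ckap2l, at 0.0596, 0.0838 and 0.107. Over all 10 members, 0 of the 30 genes named this way in the table were named for the same member in the scanner files.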

How the data were processed

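RNA was amplified and Cy3-labelled, per the labels' protocols. Spot intensity in the scanner files was made by the authors with Agilent Feature Extraction, version 10.5.1.1 per the file headers and 10.3 per the submitters' processing notes. The processed signal is background-subtracted and not scaled between arrays, per the file headers, and the array design was annotated on mm9. The log2 values of the deposited table share 1 distribution in every column (75th percentile 10.98) and keep the rank order of the median spot signal, so they are quantile normalized without background subtraction as far as the values show; the deposited table states neither. Its column medians were 8.37, 8.37 and 8.36 in WT1, WT2 and WT3 and 8.39 in each Perp-null column.

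For the scanner files, log2 of the processed signal minus the 75th percentile of each array was used, leaving out 1417 control spots and between 4 and 68 outlier spots per array. No gene probe was saturated, and between 72.8% and 82.3% were well above background. In the files as attached, label and slide coincide and cannot be told apart. For both forms, probes well above background in at least 3 of the 6 scanner files were kept (33736), genes were named by RefSeq accession (GRCm38.p6; 60.3% of the gene probes), and the probe with the highest mean stood for a gene, which left 26677 features, 15582 of them named. The same probe stood for each of the 10 FGF genes in both forms. Perp-null and wild-type labels were contrasted in limma 3.58.1 (R 4.3.3; lmFit, then eBayes with a trend), and p-values were adjusted by Benjamini-Hochberg across the 26677 features, with calls made under 0.05. The method was tested on simulated data.

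The design named the scanner files as the source and the table as an alternative. It was kept, and giving the table results of their own was decided after the mismatch was seen. The FGF genes and the lists were chosen with earlier results of these data known. All 10 FGF genes are named on every probe. In each other list at most 4 genes are named, ranked by p in the table rather than in the scanner files, and the genes of nearest pattern are given for the 4 FGF genes of widest range. Alternatives were quantile and median scaling, normexp with an offset of 50 on the median spot signal (there is no mean signal column in the files used here), other filters, the mean of the probes, outlier spots kept, eBayes without trend, array weights, the replicate block and each array left out. Deviations from the group means correlated between same-numbered samples at 0.407, 0.393 and −0.0246 in the table, so the numbers were not taken as pairs there, and at 0.843, 0.876 and 0.193 in the scanner files, where same-numbered files also share a slide position. With 3 arrays per group, their number limits the precision.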

Additional observations from a re-analysis of the deposited data

How the results depend on the processing

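On the scanner files as attached, 0 of the 10 FGF genes passed in each setting with more than 1 array per group. The deposited table, run as an alternative, gave 1. The files of WT1, WT3 and PN2 alone, whose Perp signal follows the labels, leave 1 Perp-null array, on another slide. That array had the lowest share of probes well above background (72.8%), and only the size of differences is given for those 3 files. The lone Perp-null array there, and in the 3 columns below, is assumed to vary like the wild-type arrays. Features past the threshold were 0 in the scanner files (630 at an unadjusted p under 0.05), 1 each with normexp, array weights and the replicate block, 6289 in the table and 12078 in those 3 files. Unadjusted counts were 15 with median scaling, 2456 with array weights, 9569 in the table, 13241 in the 3 files and 277 to 1332 with each array left out. Directions turned as follows, the cause not being tested. Fgfr2 (−0.07) was 0.0048 with quantile scaling, 0.0113 with normexp, 0.02 in the table, 0.16 as the mean of its probes and 0.0258 with array weights. Dusp6 (0.01) was −0.0798 with median scaling and −0.50 with array weights. Spry4 (0.25) was −0.51 with normexp, −0.11 in the table, −0.27 without a filter, −0.32 with array weights and −4.49 in the 3 files. Fgf9 was −0.0881 with array weights. Fgf3, Fgf10, Fgfr3 and Spry2 were 0.47, 1.12, 0.26 and 0.66 in the table, and Fgf10 and Spry2 were 0.31 and 0.43 in the 3 files. With each array left out Spry4 ran from −1.16 to 1.91, Dusp6 from −0.26 to 0.30, Fgfr1 from −0.0571 to 0.35 and Spry1 from −0.15 to 0.56. In the table, the count of FGF genes past the threshold was 2 without a filter. It was 0 with probes above background on all arrays, without the trend and with the replicate block. It was also 0 in the 5 columns with a matching scan, with the slide as a covariate or not. It was 0 to 2 with each column left out. The columns WT1, WT2 and PN2 alone, whose Xist follows the label, leave 1 Perp-null column. Only the size of differences is given for those 3 columns. Features past the threshold were 1543 (4787 unadjusted) with probes above background on all arrays and 1 with the replicate block. They were 1 in the 5 columns, 1 with their slide, and 1 to 5919 with each column left out (7974 to 9471 unadjusted). The median of the FGF genes was 0.22 to 0.64 with each column left out. Table directions turned for Fgfr2 (−0.0068 with array weights), Spry4 (0.12 with array weights, 0.98 without a filter), and, in the 3 columns, Fgfr1 (−0.155), Fgfr2 (−0.06) and Spry4 (0.365). With each column left out Fgf3 ran from −0.0033 to 0.88, Fgfr1 from −0.0233 to 0.30, Fgfr2 from −0.03 to 0.075, Fgfr3 from −0.0067 to 0.43 and Spry4 from −0.325 to 0.055. All of these alternatives in the table, and the 3-file setting, were chosen after seeing the data. Signal over background limits Spry4 most, since neither of its probes was well above background on more than 3 of the 6 arrays.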
